A study of Homo sapiens with 10 samples.

Results

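The mitochondrial ribosomal protein genes were followed in QGP1 (QGP-1) cells, an established human pancreatic neuroendocrine tumor line, by RNA-seq. Members were the genes whose symbol consists of MRPL or MRPS and a number, with an optional letter A to C. Of 35606 genes listed in both deposited tables, 78 had such a name, 49 for the large subunit (MRPL) and 29 for the small subunit (MRPS). A mean of at least 1 CPM (reads scaled to a common effective library size) over the samples of a table was required, and 77 genes met it, 48 MRPL and 29 MRPS. MRPL45 did not: it was listed at 0 in 8 of 10 samples, at 0.678 CPM in 1 sgPIKFYVE_1 sample and at 0.579 CPM in 1 Torin1 sample. Its 2 listed pseudogene copies summed to 1.215 to 3.012 CPM, above MRPL45 in every sample. Whether reads of MRPL45 were assigned to these copies was not tested, so its low values need not mean absence. MRPL55 was the member nearest above the limit, with 6.55 to 9.46 CPM over the 10 samples.

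The series held 10 samples, 2 in each of 5 groups, in 2 tables. In the first table, cells with genotype WT and a control guide (sgNC) were set against cells labelled PIKFYVE knockdown with the guide sgPIKFYVE_1, both without drug. By the study's methods both carry a stably integrated CRISPR interference vector (dCas9-KRAB with the guide) and were selected with puromycin, so the control shares the vector and the knockdown rests on 1 guide. In the second table, WT cells received DMSO, Torin1 at 100 nM or Apilimod at 1 uM, for 24 h according to the labels, whereas the study's figure legends give a shorter exposure. PIKfyve is the lipid kinase that makes PI(3,5)P2 on endosomes and lysosomes, apilimod is its inhibitor, and Torin1 is a catalytic inhibitor of the kinase mTOR. The comparisons ask what loss or inhibition of PIKfyve, and inhibition of mTOR, do to the transcripts of these cells. The labels do not say whether replicates came from separate cultures, so p-values measure only the spread between these samples.

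Mitochondria keep their own ribosome, descended from that of bacteria, which makes the few proteins encoded by mitochondrial DNA, all of them components of oxidative phosphorylation. Its RNAs are transcribed in the organelle, while all of its proteins are encoded in the nucleus, made on cytosolic ribosomes and imported. Some of these proteins have a bacterial counterpart and form the ancient core, and others were added in the mitochondrial lineage and lie mostly on the surface. The symbols follow an early assignment: MRPS18A and MRPS30 sit in the large subunit despite the S in their names, and MRPS36 is now known as a subunit of the 2-oxoglutarate dehydrogenase complex and not of the ribosome.

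The promoters of nuclear genes for mitochondrial proteins are known for sites of NRF1, of ETS factors such as GABPA and of YY1. RefSeq promoters on GRCh38.p14, from 250 bases before to 50 bases after a start, were at hand for 69 of the 78 members. The letters of 4 motifs were searched on both strands, with a gene counted if any listed start held them: the NRF1 core TGCGCA, the ETS letters CCGGAAG, the YY1 letters AAGATGGC and the E-box CACGTG. The ETS and YY1 letters can overlap by their shared AAG, and the NRF1 core and the E-box by their shared CA. The YY1 letters were in 30.4% of members and in 4.66% of 15842 protein-coding genes. The ETS letters were in 43.5% against 16.5%, the NRF1 core in 21.7% against 12.7%, and the E-box in 13% against 10.9%. At least 1 of the 4 was in 75.4% of members and in 35.8% of protein-coding genes. A match is a description of the letters and not evidence of a bound factor.

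The stretches shown belong to genes that the results turn on: MRPL12 and MRPS6, with the largest Torin1 decreases of each subunit, and the paralogs MRPS18B and MRPS18C, which Torin1 moved in opposite directions. Capitals mark the searched letters, and each stretch reads 5′ to 3′ on the strand of its gene. MRPL12 is chr17:81703139-81703356 (plus strand), MRPS18C is chr4:83455857-83455931 (plus), MRPS6 is chr21:34073518-34073547 (plus) and MRPS18B is chr6:30617808-30617837 (plus), all GRCh38.p14. The first pair lies outside annotated exons of protein-coding genes, and the others are 30 bases around the NRF1 core, inside their genes as annotated.
MRPL12: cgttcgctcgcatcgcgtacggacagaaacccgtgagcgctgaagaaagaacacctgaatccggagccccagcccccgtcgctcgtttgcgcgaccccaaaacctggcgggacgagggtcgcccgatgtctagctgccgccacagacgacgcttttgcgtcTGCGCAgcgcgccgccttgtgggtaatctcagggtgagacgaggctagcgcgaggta
MRPS18C: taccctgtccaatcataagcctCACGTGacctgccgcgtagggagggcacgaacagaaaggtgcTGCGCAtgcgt
MRPS6: tggcgcggcgtcTGCGCAgctgccagcgcc
MRPS18B: tttcctgaagcaTGCGCAgttgcctttccg

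All 4 of these genes held the NRF1 core in the window around a listed start, the gene that Torin1 raised as well as the 3 that it lowered. For the YY1 letters, 30 bases are shown for MRPL20, which fell with Torin1, and for MRPS27, which rose by a small amount. Positions are chr1:1407260-1407289 and chr5:72320206-72320235, both on the minus strand.
MRPL20: ccgacccgggcAAGATGGCagcggcgctgc
MRPS27: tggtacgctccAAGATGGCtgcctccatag

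MRPL46 and MRPS11 start 33 bases apart on opposite strands of chromosome 15 and were called in none of the comparisons with a control. Among the 33 matched members that fell with Torin1, 75.8% held at least 1 of the 4 sets of letters, against 75% of the other 36. The YY1 letters were in 33.3% and 27.8% of these, and the ETS letters in 48.5% and 38.9%. Among the 29 matched members that rose in the knockdown, 86.2% held at least 1 set of letters, against 67.5% of the other 40. There the YY1 letters were in 41.4% and 22.5%, the NRF1 core in 27.6% and 17.5%, and the ETS letters in 44.8% and 42.5%. The other 36 and the other 40 both include MRPL45, which was below the limit and not tested for a change. It held the NRF1 core, the YY1 letters and the E-box. The differences between these shares were not tested.

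The targeted gene was checked first. PIKFYVE was 100.7 and 97.5 CPM with sgNC and 10.9 and 12.5 CPM with sgPIKFYVE_1, so the groups lay far apart. The log2 fold change was -2.98 (SE 0.0979, limma adjusted p = 1.22e-14). The steps between low values put the depth at 9.09 to 13.18 M reads a sample. A floor of 3 reads, chosen here to mark low values, corresponds to 0.228 to 0.33 CPM. Of 8 neuroendocrine markers, 7 were well above that, such as CHGA at 389 to 458 CPM, and NEUROD1 was at 0 to 0.7 CPM. Of 6 markers of immune, stromal and endothelial cells, CD3E and COL3A1 were at 0 and the highest value was 9.6 CPM for COL1A1. Of the 7 neuroendocrine markers tested, 3 fell in the knockdown, 3 fell with apilimod, and 4 rose and 2 fell with Torin1. Of 2 other markers tested 1 fell in the knockdown. For comparison, 20.9% of all genes tested were called lower in the knockdown and 2.79% with apilimod (limma, adjusted p under 0.05). With Torin1 16.6% of all genes were called higher and 21.8% lower. The part of these markers in the results was not tested. In bulk samples, fewer cells of a type and less RNA per cell cannot be told apart.

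With PIKFYVE knocked down, most mitochondrial ribosomal protein genes lay higher than in control cells. The 48 MRPL genes summed to 1785 and 1883 CPM with sgNC and to 2135 and 2175 CPM with sgPIKFYVE_1, a difference of 17.5% between means. The 29 MRPS genes summed to 1301 and 1335 CPM with sgNC and to 1522 and 1533 CPM with sgPIKFYVE_1, a difference of 15.9%. Both knockdown samples exceeded both controls in each sum. The samples differ in the total over all genes. As a share of that total, the MRPL genes were 0.1808% and 0.1888% with sgNC and 0.2096% and 0.2127% with sgPIKFYVE_1. The MRPS genes were 0.1318% and 0.1339% and then 0.1494% and 0.1498%. With 2 samples against 2, an exact two-sided permutation test cannot give a p under 0.333, so the sums carry no test.

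**Figure D1:**
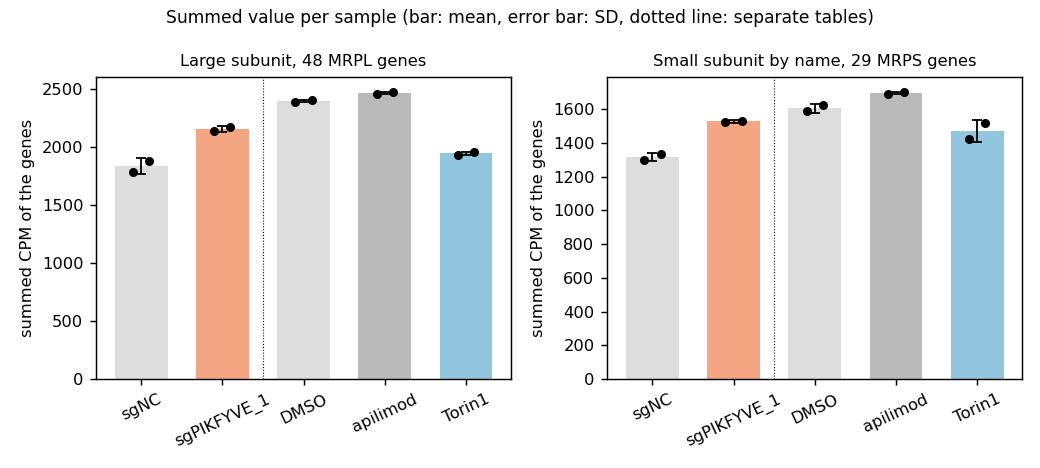
Summed CPM of the 48 MRPL genes (left) and the 29 MRPS genes (right) in each sample (points), with the group mean (bar) and SD (error bar, 2 samples a group); the dotted line separates the tables, which were normalized apart and are not to be compared. Both sums lie higher with sgPIKFYVE_1 than with sgNC and lower with Torin1 than with DMSO, and with Torin1 the MRPL sum differs by -18.8% and the MRPS sum by -8.4%.

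By gene, 35 of 77 members rose with the knockdown and 5 fell (limma, adjusted p under 0.05 over all 13591 genes tested). Of all genes tested, 21.6% were called higher and 20.9% lower. Without the variance trend 23 members were called in place of 40. Among MRPL genes 18 of 48 rose and 3 fell, with a median log2 fold change of 0.24. Among MRPS genes 17 of 29 rose and 2 fell, with a median of 0.26, and the median over all genes tested was -0.00. Without the first sgNC sample 11 MRPS genes were called higher. In 57 members both knockdown samples exceeded both controls, against 35.4% of all genes. Of the 35 increases, 18 were called under every alternative setting and 17 were not.

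The 4 MRPL genes with the largest increases all have a bacterial counterpart, but the mitochondria-specific MRPL49 was close behind the fourth. MRPL35 was 41.9 and 52.1 CPM with sgNC and 69.7 and 67.0 CPM with sgPIKFYVE_1 (log2 fold change 0.54, SE 0.0909, limma adjusted p = 8.81e-05). MRPL2, a protein beside the catalytic centre, was 16.9 and 18.3 CPM and then 25.8 and 24.6 CPM (0.50, SE 0.118, adjusted p = 0.00203). MRPL18, whose bacterial counterpart binds 5S RNA, was 29.3 and 30.6 CPM and then 41.8 and 40.7 CPM (0.45, SE 0.0927, adjusted p = 0.000641). In all 3 the lower knockdown sample was above the higher control. MRPL34 followed with 29.1 and 30.4 CPM against 40.8 and 41.1 CPM (0.45, adjusted p = 0.000657). MRPL49 was 49.4 and 51.7 CPM against 68.8 and 69.7 CPM, also 0.45, and was called in all 10 alternatives.

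In the small subunit the largest increase was that of MRPS15, with 76.9 and 74.6 CPM with sgNC and 116.1 and 107.8 CPM with sgPIKFYVE_1 (log2 fold change 0.56, SE 0.0656, limma adjusted p = 1.29e-06). MRPS18C was 24 and 25.3 CPM and then 34.5 and 36.6 CPM (0.51, SE 0.101, adjusted p = 0.000409). MRPS12, the counterpart of the bacterial decoding-centre protein S12, was 9.13 and 10.7 CPM and then 14.7 and 14.2 CPM (0.51, SE 0.152, adjusted p = 0.0114). These 3 genes showed no overlap between groups. MRPS28 was 13.1 and 12.7 CPM against 16.4 and 20.6 CPM (0.47, adjusted p = 0.0114), with the knockdown samples further apart than the controls, and without the second knockdown sample it was 0.32 (adjusted p = 0.139). MRPS12 was not called without the first sgNC sample (0.41, adjusted p = 0.111) or without the first knockdown sample (0.48, adjusted p = 0.0541).

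The 5 members that fell included the one that is no ribosomal protein. MRPS36 (ENSG00000134056.12, chr5:69217760-69230129, plus strand) was 55.8 and 51.3 CPM with sgNC and 29.9 and 26.3 CPM with sgPIKFYVE_1, a log2 fold change of -0.91 (SE 0.0948, 95% interval -1.11 to -0.71, limma adjusted p = 2.78e-07). It was the lowest of the 77 log2 fold changes and had no overlap between groups. Its 5 listed pseudogene copies were at 0 in every sample. MRPL39 was 25.3 and 25.9 CPM and then 17.4 and 20.1 CPM (-0.43, SE 0.118, adjusted p = 0.00617), and without the first knockdown sample it was -0.34 (adjusted p = 0.0509). MRPL53, which sits near the stalk, was 32.2 and 34.7 CPM and then 26.9 and 26.4 CPM (-0.32, SE 0.101, adjusted p = 0.0162). Its call was lost without the second sgNC sample (-0.26, adjusted p = 0.158) or the second knockdown sample (-0.30, adjusted p = 0.0506). MRPS21 was 126.2 and 134.6 CPM and then 106.3 and 109.9 CPM (-0.27, SE 0.0604, adjusted p = 0.00135). MRPL28 had the smallest of the 5 decreases (-0.26, adjusted p = 0.0327) and lost its call when any 1 of the 4 samples was left out. Without the second sgNC sample, or either knockdown sample, 1 MRPL gene was called lower.

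By origin, 13 of the 30 MRPL genes with a bacterial counterpart rose and 1 fell with the knockdown, and among the 18 tested mitochondria-specific MRPL genes 5 rose and 2 fell. In the small subunit 10 of 16 genes with a bacterial counterpart rose and 1 fell, and 6 of 10 mitochondria-specific genes rose. The 4 medians lay between 0.19 and 0.30. By position in the large subunit, 2 of 5 genes at the exit tunnel and 2 of 8 at the central protuberance rose, while of the 4 stalk genes none rose at an adjusted p under 0.05, and MRPL53 fell. The shares at the central protuberance and among the mitochondria-specific MRPL genes were near the 21.6% of all genes called higher. MRPL12, the stalk protein also reported to bind the mitochondrial RNA polymerase, was 49.4 and 54.2 CPM against 59.7 and 59.2 CPM (0.20, adjusted p = 0.0512). MRPS30 rose from 59.8 and 61.0 CPM to 81.1 and 80.6 CPM (0.41, SE 0.0695, adjusted p = 8.4e-05).

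**Figure D2:**
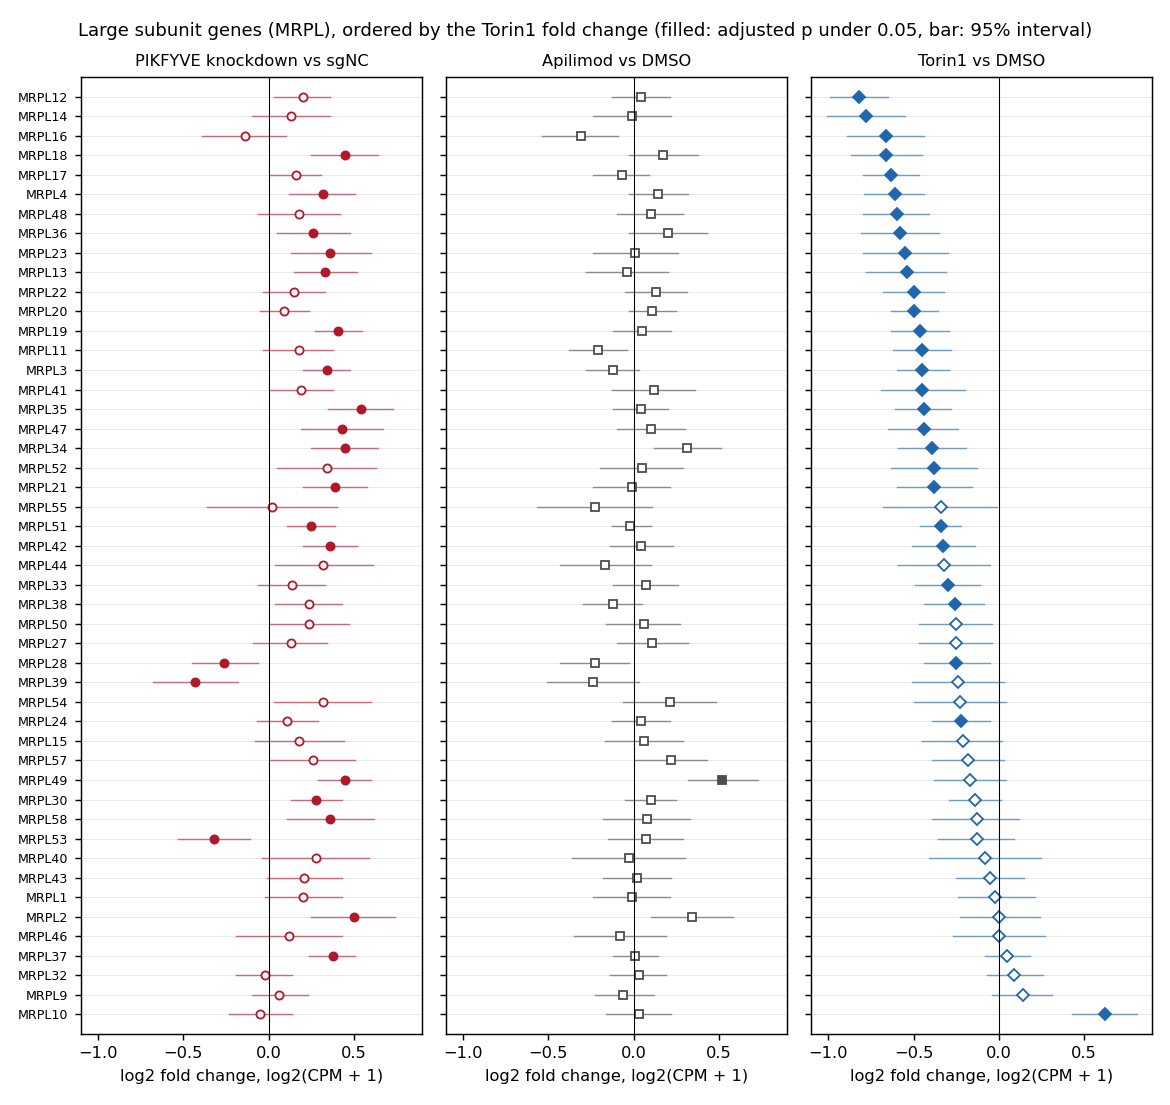
log2 fold change on the log2(CPM + 1) scale (x axis) of the 48 MRPL genes (y axis, ordered by the Torin1 value) in the knockdown, with apilimod and with Torin1; bars are 95% intervals from limma and filled points have an adjusted p under 0.05. In the knockdown 18 filled points lie above 0 and 3 below; with apilimod 1 is filled; with Torin1 27 filled points lie below 0 and 1, MRPL10, above.

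Apilimod called few members. The MRPL genes summed to 2387 and 2403 CPM with DMSO and 2457 and 2474 CPM with apilimod, and the MRPS genes to 1588 and 1625 CPM and then 1692 and 1703 CPM. The apilimod samples lay above both controls in each sum, by 2.95% and 5.69% of the mean. All genes together summed to 1023573 and 1024332 CPM with apilimod and to 1004002 and 1000523 CPM with DMSO. As a share of these totals, the MRPL genes were 0.2378% and 0.2402% with DMSO and 0.2401% and 0.2415% with apilimod. These groups overlapped. The MRPS shares were 0.1581% and 0.1624% and then 0.1653% and 0.1662%, without overlap. Of 77 members 4 rose, 1 MRPL and 3 MRPS, and none fell (limma), while 5.75% of all genes were called higher and 2.79% lower. Taken without adjustment, 8 members were higher and 3 were lower at p under 0.05. The share of all genes at that unadjusted threshold is not given here. Both medians were 0.04, against -0.01 over all 13520 genes tested.

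MRPL49 showed the largest apilimod response, from 63.5 and 63.0 CPM with DMSO to 89.7 and 92.9 CPM (log2 fold change 0.52, SE 0.0955, limma adjusted p = 0.00264). It overlaps FAU and SYVN1 on the opposite strand, and whether the counting used strand is not given in the sources used here. MRPS27, an RNA-binding protein of the small subunit, went from 93.7 and 95.3 CPM to 118.2 and 120.7 CPM (0.33, SE 0.0607, adjusted p = 0.00254). MRPS15 went from 102.4 and 102.5 CPM to 135.4 and 122.9 CPM (0.33, SE 0.0673, adjusted p = 0.00608). The groups of these 3 genes were apart. MRPS36, which fell in the knockdown, was 52.4 and 60.0 CPM with DMSO and 68.5 and 70.8 CPM with apilimod (0.31, SE 0.0846, adjusted p = 0.0367). None of the 4 calls held under every alternative, and without the variance trend none was made. Without the first apilimod sample, or without the first DMSO sample, MRPS15 and MRPS36 were lost and 2 members were called.

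With Torin1 most mitochondrial ribosomal protein genes that were called lay lower than with DMSO, and the MRPL sum lay lower by a larger share than the MRPS sum. The MRPL sum was 2387 and 2403 CPM with DMSO and 1934 and 1955 CPM with Torin1, a difference of -18.8% between means. The MRPS sum was 1588 and 1625 CPM with DMSO and 1426 and 1516 CPM with Torin1, a difference of -8.4%. The ratio of the MRPL to the MRPS sum was 1.504 and 1.479 with DMSO, 1.356 and 1.289 with Torin1 and 1.452 and 1.453 with apilimod. Both Torin1 samples were below the other 4 in each sum and in the ratio. As a share of the total over all genes, the MRPL genes were 0.2378% and 0.2402% with DMSO and 0.1988% and 0.1976% with Torin1. The MRPS genes were 0.1581% and 0.1624% and then 0.1466% and 0.1532%.

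By gene, 39 of 77 members fell with Torin1 and 4 rose (limma, adjusted p under 0.05), against 21.8% of all genes called lower and 16.6% called higher. Among MRPL genes 27 of 48 fell and 1 rose, with a median log2 fold change of -0.32. Among MRPS genes 12 of 29 fell and 3 rose, with a median of -0.21, and the median over all genes was -0.01. Without the second DMSO sample, 7 MRPS genes were called lower. In 55 members both Torin1 samples were below both controls, against 36.6% of all genes. Of the 39 decreases, 26 were called under every alternative setting.

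Decreases among MRPL genes were led by MRPL12 (ENSG00000262814.8, chr17:81703357-81707526, plus strand), the stalk protein. It was 71.1 and 69.2 CPM with DMSO and 37.6 and 41.1 CPM with Torin1, a log2 fold change of -0.82 (SE 0.0802, 95% interval -0.99 to -0.65, limma adjusted p = 3.55e-06). The Torin1 samples were far below the DMSO and apilimod samples, which overlapped each other (75.1 and 69.2 CPM with apilimod). A transcript listed as AC139530.2 overlaps it on the same strand. MRPL14, at the face between the subunits, was 34.1 and 31.6 CPM and then 17.2 and 20.3 CPM (-0.78, SE 0.107, adjusted p = 7.2e-05). MRPL18 was 55.0 and 44.9 CPM and then 31.3 and 31.1 CPM (-0.66, SE 0.0974, adjusted p = 0.000139). It was one of the genes that rose in the knockdown. MRPL16 was 30.1 and 31.4 CPM and then 20.03 and 18.1 CPM (-0.66, SE 0.105, adjusted p = 0.000228), with apilimod samples between the groups at 24.3 and 24.9 CPM (-0.31, adjusted p = 0.0867).

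In the small subunit MRPS6 (ENSG00000243927.6, chr21:34073224-34143034, plus strand) showed the largest decrease of all members. It was 40.4 and 40.6 CPM with DMSO and 20.7 and 20.6 CPM with Torin1, a log2 fold change of -0.94 (SE 0.0966, 95% interval -1.15 to -0.73, limma adjusted p = 5.39e-06). Replicates were within 1 CPM of each other in both groups. SLC5A3 overlaps MRPS6 on the same strand, so reads may be split between them. MRPS12 was 14.1 and 12.9 CPM and then 7.75 and 8.08 CPM (-0.70, SE 0.138, adjusted p = 0.00119). MRPS17 was 33.9 and 41.2 CPM and then 23.8 and 25.2 CPM (-0.59, SE 0.112, adjusted p = 0.000949). These genes have a bacterial counterpart, and MRPS6 and MRPS12 had risen in the knockdown. MRPS34, a mitochondria-specific protein, was 60.3 and 65.2 CPM and then 43.3 and 43.2 CPM (-0.52, SE 0.0883, adjusted p = 0.00038).

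The 4 members that rose with Torin1 were MRPL10, MRPS18B, MRPS35 and MRPS27. MRPL10 (ENSG00000159111.13, chr17:47823272-47831534, minus strand), which anchors MRPL12 to the large subunit, was 40.4 and 39.9 CPM with DMSO and 64.2 and 60.0 CPM with Torin1 (log2 fold change 0.62, SE 0.0882, 95% interval 0.43 to 0.81, limma adjusted p = 0.000102). With apilimod it was 43.8 and 38.4 CPM, around the controls. The other stalk proteins were not raised: MRPL11 fell from 53.7 and 54.3 CPM to 38.9 and 39.4 CPM (-0.45, adjusted p = 0.000527), and MRPL53 was -0.13 (adjusted p = 0.338). MRPS35 was 108.4 and 116.4 CPM and then 124.8 and 145.1 CPM (0.26, SE 0.0742, adjusted p = 0.0139), and without the second Torin1 sample it was 0.15 (adjusted p = 0.148), while without the first DMSO sample it was 0.21 (adjusted p = 0.127). MRPS27 was 93.7 and 95.3 CPM and then 104.9 and 106.7 CPM (0.16, adjusted p = 0.0498) and kept its call in 4 of 13 alternatives.

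**Figure D3:**
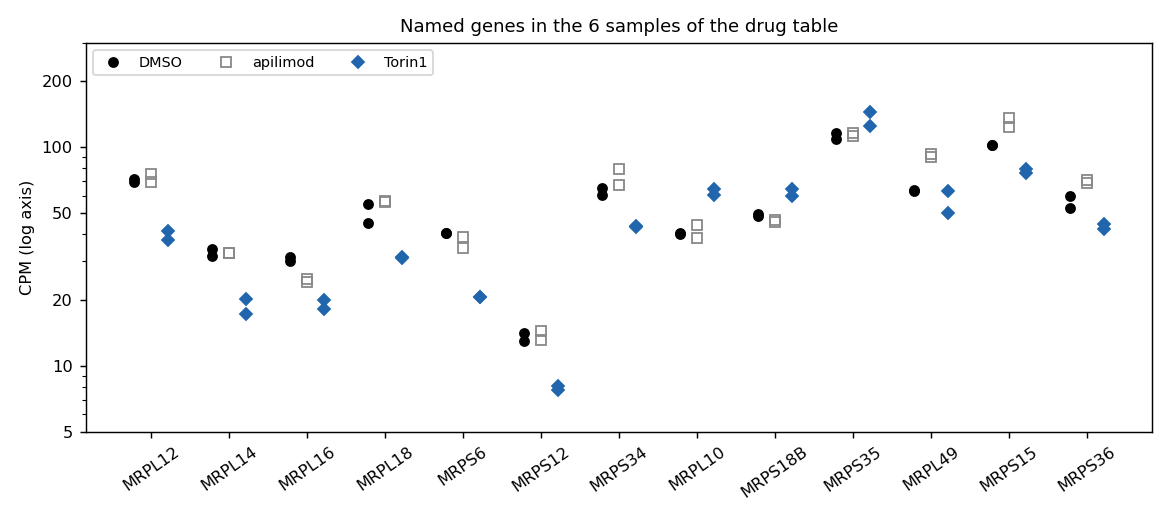
CPM (log axis) of 13 named genes in each of the 6 samples of the drug table, 2 a group (DMSO filled circles, apilimod open squares, Torin1 diamonds). MRPL12 to MRPS34 lie lower with Torin1, MRPL10, MRPS18B and MRPS35 higher, and MRPL49, MRPS15 and MRPS36 are higher with apilimod.

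The 3 human paralogs of bacterial S18 gave different values. MRPS18B is counted below with the mitochondria-specific genes. MRPS18B (ENSG00000204568.12, chr6:30617709-30626395, plus strand) was 48.6 and 49.3 CPM with DMSO and 59.6 and 64.1 CPM with Torin1 (log2 fold change 0.33, SE 0.0788, limma adjusted p = 0.00455). MRPS18C (ENSG00000163319.11, chr4:83455932-83469735, plus strand) was 35.02 and 37.6 CPM and then 26.3 and 24.2 CPM (-0.51, SE 0.106, adjusted p = 0.00199). The groups were apart in both, in opposite directions. MRPS18A, in the large subunit, was 32.0 and 32.4 CPM and then 29.2 and 33.6 CPM (-0.04, 95% interval -0.25 to 0.17). In the knockdown MRPS18B rose from 35.8 and 32.1 CPM to 44.5 and 45.8 CPM (0.40, SE 0.0913, adjusted p = 0.00145), as MRPS18C did, while MRPS18A was 31.4 and 33.6 CPM against 31.7 and 36.2 CPM (0.06, 95% interval -0.15 to 0.27). With apilimod none of the 3 was called at an adjusted or an unadjusted p under 0.05, with values of -0.02 for MRPS18A, -0.09 for MRPS18B and 0.09 for MRPS18C.

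**Figure D4:**
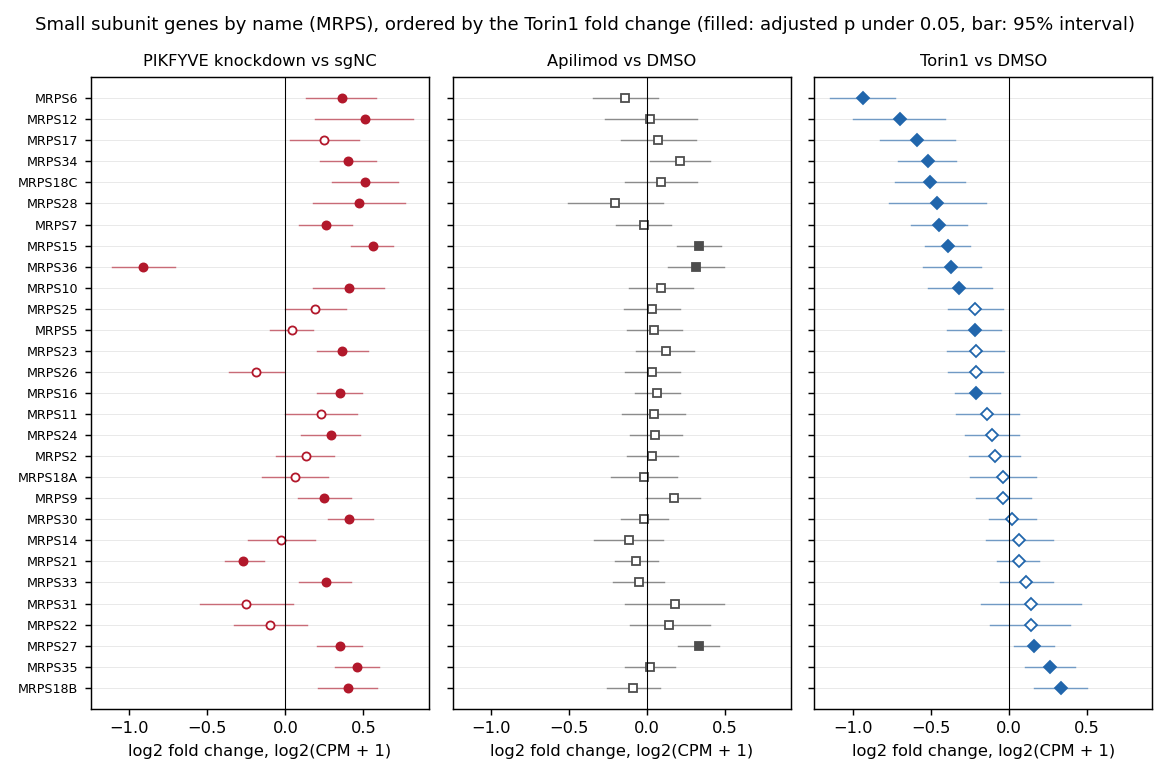
log2 fold change on the log2(CPM + 1) scale (x axis) of the 29 MRPS genes (y axis, ordered by the Torin1 value) in the knockdown, with apilimod and with Torin1; bars are 95% intervals from limma and filled points have an adjusted p under 0.05. Filled points number 17 above 0 and 2 below in the knockdown, 3 above with apilimod, and 3 above and 12 below with Torin1.

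By origin, Torin1 lowered 21 of the 30 MRPL genes with a bacterial counterpart and raised 1, with a median of -0.44. It lowered 6 of 18 mitochondria-specific MRPL genes, with a median of -0.23. In the small subunit 10 of 16 genes with a bacterial counterpart fell (median -0.27). Of the 10 mitochondria-specific MRPS genes, 1 fell and 3 rose, with a median of 0.12. Among all genes tested, 21.8% were called lower and 16.6% higher with Torin1, so the share of these MRPS genes called lower was below that of all genes. All 5 tested genes of the exit tunnel fell: MRPL17, MRPL22, MRPL23, MRPL24 and MRPL47, from -0.22 for MRPL24 to -0.63 for MRPL17. The MRPL24 call was kept in 5 of 13 alternatives and was lost without any 1 of the DMSO or Torin1 samples, and the other 4 calls were kept in all 13. At the central protuberance 3 of 8 fell. MRPS30 was not called, at 74.2 and 76.1 CPM with DMSO and 73.5 and 78.5 CPM with Torin1 (0.02, 95% interval -0.13 to 0.17). MRPS36 fell from 52.4 and 60.0 CPM to 42.1 and 44.5 CPM (-0.37, adjusted p = 0.00373), and its call was lost without the second DMSO sample (-0.27, adjusted p = 0.0731). Differences between the origin groups were not tested.

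**Figure D5:**
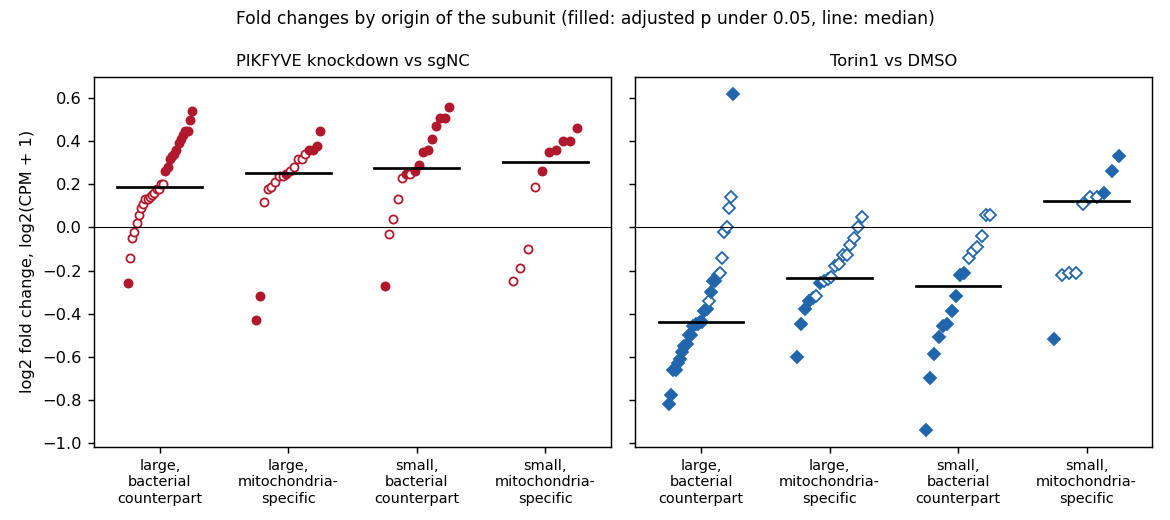
log2 fold change on the log2(CPM + 1) scale (y axis) of each gene (points, filled at an adjusted p under 0.05) by subunit and origin, in the knockdown (left) and with Torin1 (right); lines are medians. With Torin1 the medians are -0.44, -0.23, -0.27 and 0.12 from left to right, and in the knockdown all 4 lie between 0.19 and 0.30. MRPS18A, MRPS30 and MRPS36 are not shown.

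Set directly against apilimod, in a fit where the DMSO samples set no mean but still enter the estimate of error, Torin1 samples had 47 members lower and 3 higher (limma), with 26.2% of all genes called lower and 20.5% higher. The median was -0.36 over 48 MRPL genes, of which 32 were lower, and -0.25 over 29 MRPS genes, of which 15 were lower. MRPL12 was -0.86 (SE 0.0802, adjusted p = 1.21e-06), MRPL18 was -0.83 (SE 0.0974, adjusted p = 1.04e-05) and MRPL36, a small protein of the large subunit, was -0.78 (SE 0.107, adjusted p = 4.54e-05). In the small subunit MRPS6 was -0.80 (adjusted p = 1.39e-05), MRPS34 -0.74 (adjusted p = 1.28e-05) and MRPS15 -0.72 (adjusted p = 1.18e-06). The 3 higher genes were MRPL10 (0.59, SE 0.0882, adjusted p = 9.92e-05), MRPS18B (0.42, SE 0.0788, adjusted p = 0.000581) and MRPS35 (0.24, SE 0.0742, adjusted p = 0.0178), the last of which lost its call without the second Torin1 sample (0.13, adjusted p = 0.196) or the first apilimod sample (0.21, adjusted p = 0.0881). MRPS27, although higher with Torin1 than with DMSO, was lower than with apilimod (-0.17, adjusted p = 0.0303), a call kept in 3 of 13 alternatives.

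Across the tables, which share no samples, 22 of 77 members rose in the knockdown and fell with Torin1, 13 MRPL and 9 MRPS. Of 13235 genes tested in both tables, 10.4% had that pair of calls. Examples are MRPL18, MRPL34, MRPL35, MRPS6, MRPS12, MRPS15 and MRPS18C. The 3 that rose in both were MRPS18B, MRPS27 and MRPS35, and the 2 that fell in both were MRPL28 and MRPS36. The Torin1 call of MRPL28 was kept in only 2 of 13 alternatives and was lost when any 1 of the 6 samples was left out. For 21 members no call was made in the knockdown, with apilimod or with Torin1 against their controls. The shares of all genes that rose in both, fell in both or had no call are not given here.

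Of 5 subunits of the mitochondrial ribosome that carry other names, 2 rose in the knockdown: AURKAIP1, from 64.1 and 64.96 CPM to 86.0 and 76.6 CPM (0.33, adjusted p = 0.00136), and GADD45GIP1, from 19.4 and 19.7 CPM to 27.4 and 22.3 CPM (0.33, adjusted p = 0.0382). With Torin1 AURKAIP1 (-0.60, adjusted p = 3.21e-05), GADD45GIP1 (-0.71, adjusted p = 0.000247) and CHCHD1 (-0.43, adjusted p = 0.00483) fell. Among all genes tested, 21.6% were called higher in the knockdown and 21.8% lower with Torin1, and 5 genes are too few to set against these shares. DAP3, the GTP-binding protein of the small subunit, was 0.06 in the knockdown and -0.03 with Torin1, and PTCD3 was 0.11 and -0.11, none of them called. With apilimod none of the 5 had an adjusted or an unadjusted p under 0.05.

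The genes that build and serve the mitochondrial ribosome were counted in lists. Over all genes tested, 21.6% were called higher and 20.9% lower in the knockdown. The shares were 5.75% and 2.79% with apilimod, and 16.6% and 21.8% with Torin1. Of 25 assembly factors 10 rose and 1 fell in the knockdown, 3 rose with apilimod, and 4 rose and 8 fell with Torin1. Of 15 translation factors and mRNA-binding proteins, 8 rose in the knockdown, 1 with apilimod, and 3 rose and 3 fell with Torin1. TUFM, the elongation factor EF-Tu of mitochondria, was 119.5 and 122.7 CPM with sgNC and 174.2 and 159.1 CPM with sgPIKFYVE_1 (0.46, adjusted p = 4.34e-06), and -0.01 with Torin1 (adjusted p = 0.937). LRPPRC, which stabilizes mitochondrial mRNAs, was called higher in all 3 comparisons, by 0.62 in the knockdown (adjusted p = 1.08e-08), 0.17 with apilimod (adjusted p = 0.026) and 0.36 with Torin1 (adjusted p = 3.31e-05).

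Of 12 genes for the copying and transcription of mitochondrial DNA, 2 rose and 2 fell in the knockdown, and 5 fell with Torin1. The knockdown shares, 16.7% each way, lay below the 21.6% and 20.9% of all genes called higher and lower. With Torin1 41.7% fell, against 21.8% of all genes. With apilimod none of the 12 was called, and none had an unadjusted p under 0.05. TFAM, which packages mitochondrial DNA, was 37.2 and 37.4 CPM against 38.9 and 40.4 CPM in the knockdown (0.09, adjusted p = 0.465), and 47.7 and 57.2 CPM against 39.3 and 46.4 CPM with Torin1 (-0.29, adjusted p = 0.0471). POLRMT, the mitochondrial RNA polymerase, was 0.07 in the knockdown and -0.03 with Torin1, neither called. The 13 mRNAs encoded by mitochondrial DNA all rose in the knockdown, by 0.15 to 1.10 with a median of 0.36. With Torin1 only MT-ND1 among the 13 was called (0.18, adjusted p = 0.00086), with a median of -0.01. With apilimod none of them was called, and 4 were higher at an unadjusted p under 0.05, a threshold for which no share of all genes is given here.

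Of 9 transcriptional regulators of such genes, 4 rose in the knockdown, 3 with apilimod, and 2 rose and 2 fell with Torin1. The shares called higher were 44.4% in the knockdown and 33.3% with apilimod, against 21.6% and 5.75% of all genes. With Torin1 they were 22.2% each way, against 16.6% higher and 21.8% lower of all genes. PPARGC1A, the coactivator PGC-1 alpha, was 15.2 and 16.2 CPM with sgNC and 31.2 and 35.1 CPM with sgPIKFYVE_1 (95% interval of the log2 fold change 0.79 to 1.27, adjusted p = 6.76e-07). It was 10.1 and 9.37 CPM with DMSO, 29.4 and 30.6 CPM with apilimod (1.53, adjusted p = 1.79e-06) and 14.4 and 17.2 CPM with Torin1 (0.64, adjusted p = 0.00137). Its relative PPARGC1B rose in the knockdown (0.83, adjusted p = 2.55e-08) and with apilimod (0.47, adjusted p = 0.00192) and fell with Torin1 (-0.53, adjusted p = 0.000191). MYC, a transcription factor that binds E-boxes, rose in the knockdown (0.61, adjusted p = 9.69e-07), with apilimod (0.23, adjusted p = 0.0488) and with Torin1 (0.57, adjusted p = 1.97e-05). ESRRA, NRF1, GABPA and YY1 were called in none of the 3 comparisons, with values from -0.23 for GABPA in the knockdown to 0.23 for ESRRA with apilimod.

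The proteins of the cytosolic ribosome gave other counts. Of 79 genes, 9 rose and 25 fell in the knockdown (median -0.06), and 35 rose and 4 fell with Torin1 (median 0.11). In the knockdown 11.4% were higher and 31.6% lower, against 21.6% and 20.9% of all genes. With Torin1 the shares were 44.3% and 5.1%, against 16.6% and 21.8%. With apilimod 1 fell and none rose (limma), and taken without adjustment 1 was higher and 10 were lower at p under 0.05. The unadjusted share of all genes is not given here. The mitochondrial ribosomal protein genes had medians of 0.25 and -0.25 in the knockdown and with Torin1. The difference between the lists was not tested.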

How the data were processed

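The authors trimmed reads (Trimmomatic, after bcl2fastq 2.20 and FastQC per the labels), obtained values per gene, and scaled each table separately by the TMM method of edgeR. The deposited values are a signal on the CPM scale, and samples sum to 972493 to 1024332. DESeq2 is among the tools the authors named. The build is hg38 per the submitters' processing notes, and the quantifier and annotation release are not given in the sources used here. RNA was selected by oligo(dT) according to the methods, whereas the labels speak of removing ribosomal RNA. Between 77.05% and 80.56% of low values were whole reads within 0.05 reads, too few to recover counts.

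Genes with a table mean of at least 1 CPM were tested on log2(CPM + 1), which understates changes of low genes, with limma 3.58.1 in R 4.3.3 (lmFit, eBayes with trend) and Benjamini-Hochberg adjustment over all genes at 0.05. All 4 knockdown-table samples shared 1 fit, as did all 6 drug-table samples. The script was tested on simulated data with a single fixed dispersion. Of 200 genes changed by 0.5 on the log2 scale, 79.5% were called in the knockdown design and 84.5% in the Torin1 design. For changes of 0.3 the shares were 41.5% and 34%. Far more genes were called in the data than were changed in the simulation, so these shares are not the detection rates of the comparisons. Replicates differed by more than sampling noise (median chi-square over Poisson 1.866 to 2.838). Positions are GENCODE 29 on GRCh38. Members and gene lists were chosen with earlier results of these data known. Named genes were, per comparison and subunit, up to 4 members with the highest and 4 with the lowest log2 fold change among those called without overlap, every member called against its subunit's majority if 5 or fewer, the MRPS18 paralogs, MRPL12, MRPS30, MRPS36, the members nearest the limit, the subunits with other names and the regulators named. MRPL20, MRPL11, the exit-tunnel genes and, for the knockdown, MRPL49 were named after their values were seen. A promoter stretch of 1 gene is not reported here. Results were recomputed with each sample left out, with median centring or quantile normalization, with 0.1 as pseudocount, without the low-value filter, with replicate number as a block, without the variance trend, with the compared groups alone, and with subunits assigned by structure. Figures were drawn with matplotlib 3.10.9.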

Additional observations from a re-analysis of the deposited data

How the results depend on the processing

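No called value changed direction under any alternative tried. Without the variance trend, members called went from 40 to 23 in the knockdown and from 4 to 0 with apilimod, and without the filter on low values apilimod called 2. The Torin1 medians of the MRPL and MRPS genes went from -0.32 and -0.21 to -0.29 and -0.17 with median centring and to -0.28 and -0.15 with quantile normalization. Against apilimod they went from -0.36 and -0.25 to -0.31 and -0.20, and to -0.29 and -0.17. Quantile normalization gave an apilimod MRPS median of 0.02, and it moved the share of higher calls among all apilimod calls from 67.4% to 55.1%. Leaving out 1 sample at a time, members called ranged from 30 to 37 in the knockdown, 2 to 5 with apilimod, 29 to 42 with Torin1 and 39 to 49 against apilimod. The MRPL medians ranged from 0.20 to 0.30, 0.02 to 0.07, -0.37 to -0.29 and -0.40 to -0.31, and the MRPS medians from 0.23 to 0.32, 0.01 to 0.05, -0.21 to -0.16 and -0.25 to -0.19, in the same order. Without the first sgNC sample 11 MRPS genes were called higher in the knockdown. The labels do not say whether same-numbered samples share more than a number, and their deviations correlated at 0.037 to 0.104. With the number as a replicate block 45, 5, 49 and 53 members were called, in each comparison more than without the block. MRPL12 in the knockdown gained a call with the block (0.20, limma adjusted p = 0.0408), as it did with median centring (0.21, adjusted p = 0.0446). The cause of these shifts was not tested. With 2 samples a group and 9.09 to 13.18 M reads, changes near 0.3 on the log2 scale were often missed in the simulated data. The simulation had fewer changed genes than were called here, so the detection rate in these comparisons is not known.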
